A study of Mus musculus with 9 samples.

Results

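Procr, Ly6a, Kit, Tie1 and Emcn, which encode surface receptors of blood stem cells, were followed across every library of a bone marrow RNA sequencing series. They were chosen by name, and make up 5 of the 2402 genes in the deposited table. The samples were sorted from male C57BL/6 mice in which Cre recombinase is driven by Flt3 and acts on the mTmG reporter. In such mice a cell is red (Tom+) until it, or a cell it descends from, has made Cre, and green (GFP+) afterwards, and this cross was shared by every group. Young mice, at 3 months, gave 3 samples of GFP+ megakaryocyte progenitors (MkP), the precursors of platelet-forming megakaryocytes. Old mice, aged 18 to 20 months, gave the other 6: 2 of GFP+ MkP, 2 of MkP that were Tom+, and 2 of Tom+ stem cells (HSC). MkP were gated as lineage-negative, cKit+, Sca1-, CD150+ and CD41+, and HSC as lineage-negative, cKit+, Sca+, CD150+ and Flk2-. Kit encodes the cKit antigen of both gates and Ly6a the Sca1 antigen, so the proteins of these 2 genes were used to sort the cells. The labels do not say whether the samples of a group came from separate animals.

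The 9 rows of the table carry no sample names, and none could be tied to a sample or a group. No comparison of young with old, of GFP+ with Tom+ or of MkP with HSC was therefore made. The rows are called libraries 1 to 9, as a name only, and what follows describes how the 5 genes varied over them. Values are normalized counts, which are reads per gene divided by a factor for each library. Low values rise in equal steps of 1 read, from which whole reads were recovered, so each level is given with the reads behind it. Intervals are exact 95% intervals for counting error and do not cover variation between animals or from PCR.

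Each of the 5 proteins stands on the cell surface. Procr is the endothelial protein C receptor, which binds protein C and helps to activate it, and is widely used to enrich mouse stem cells. Ly6a (Sca1) is a small protein held in the membrane by a lipid anchor, and Kit is the tyrosine kinase receptor for stem cell factor, which progenitors and mast cells also carry. Tie1 is a receptor tyrosine kinase that pairs with Tek in angiopoietin signalling, and Emcn (endomucin) is a heavily glycosylated sialomucin. Procr, Tie1 and Emcn are also known from blood vessel endothelium.

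Between 1790670 and 4373460 reads fell on the table's genes in each library, and 1 read was worth 0.724 to 1.96 normalized counts. Libraries 3 and 4 stood apart from the rest over the whole table. Of the 2341 genes that passed a filter on low values (10 normalized counts or more in 2 libraries or more), 51.0% had their highest 2 values in libraries 3 and 4, and 40.8% had their lowest 2 values there. Itga2b, which encodes the CD41 antigen of the MkP gate, had 1616 normalized counts in library 3 and 6543 in library 4, against 45798 to 77883 in the other libraries. Slamf1 (CD150) and Flt3 (Flk2) were not analysed here. The authors' scaling of these libraries lies between those of other methods. Relative to the geometric mean of the 9 libraries, 1 read of library 3 counted 0.940 as deposited, 1.47 when libraries were scaled to their total in the table and 0.658 with median-of-ratios factors.

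All 5 genes had their highest 2 levels in libraries 3 and 4, a property shared by 51.0% of the 2341 genes, although with median-of-ratios factors Tie1 had its highest 2 in libraries 3 and 8. Each of the 5 had read numbers that differed over the libraries by more than counting error (chi-square test over 2341 genes with Benjamini-Hochberg adjustment), as they did for 98.7% of all genes tested, so passing this test says little about these genes. The ranges of Procr, Ly6a and Emcn were far wider than that of Tie1. On normalized counts with 1 added, Procr had the 21st widest range of the 2341 genes (326-fold), Emcn the 23rd (323-fold), Ly6a the 36th (263-fold), Kit the 391st (36.3-fold) and Tie1 the 1181st (6.07-fold), where the median gene had 6.16-fold. The value for Emcn depends on the added 1, because this gene had 0 reads in a library. A range of at least 4-fold was found for all 5 and for 66.4% of all genes.

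**Figure D1:**
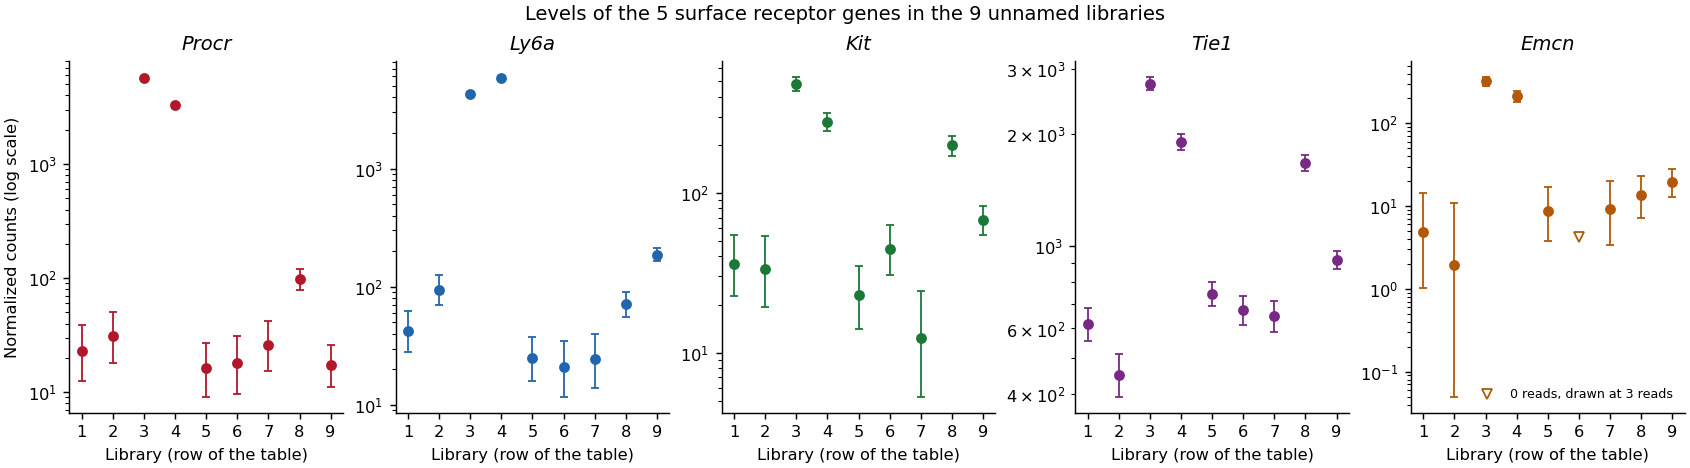
Normalized counts (log scale) of Procr, Ly6a, Kit, Tie1 and Emcn in libraries 1 to 9, with exact 95% Poisson intervals from the recovered reads; the open triangle marks the library with 0 reads of Emcn, drawn at 3 reads. Libraries 3 and 4 are highest for every gene in the deposited scaling (with median-of-ratios factors library 8 passes library 4 for Tie1). Library 8 comes next for Procr, Kit and Tie1, and library 9 for Ly6a and Emcn. For Emcn libraries 9 and 8 did not differ beyond counting error.

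Procr was low in most libraries and abundant in 2. Its normalized counts in libraries 1 to 9 were 23.0, 31.4, 5639, 3329, 16.3, 18.2, 26.1, 97.5 and 17.4. Library 3 was highest, with 4781 reads, library 4 followed with 2910, and library 8 was the third with 93. The other 6 libraries had 13 to 24 reads each. Library 3 lay 1.69-fold above library 4 (interval 1.62 to 1.77), library 4 lay 34.1-fold above library 8 (27.8 to 42.4), and library 8 lay 3.11-fold above library 2 (1.81 to 5.66). Below that, none of the 5 neighbouring pairs in the order differed beyond counting error. The highest level was 346 times the lowest (210 to 619), 204 times without library 3, and 5.98 times (3.45 to 11.1) without libraries 3 and 4. Procr is a protein-coding gene on the plus strand of chromosome 2, at 155751117 to 155755471 (mm10, GENCODE M21), with no other annotated gene overlapping it.

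Ly6a was also highest in libraries 3 and 4, in the opposite order. Its normalized counts in libraries 1 to 9 were 42.6, 94.2, 4256, 5772, 25.0, 20.98, 24.6, 71.3 and 187. Library 4 had 5045 reads and lay 1.36-fold above library 3 (interval 1.30 to 1.42), which lay 22.8-fold above library 9 (20.1 to 25.9). Library 9, with 258 reads, was the third and lay 1.98-fold above library 2 (1.45 to 2.76). Libraries 2 and 8 did not differ beyond counting error (1.32-fold, 0.894 to 1.94), while library 8 lay 1.67-fold above library 1 (1.05 to 2.74). Libraries 5, 7 and 6 were lowest, with 15 to 23 reads. The range was 275-fold (167 to 492) over the 9 libraries and 8.91-fold (5.30 to 16.1) without libraries 3 and 4. Ly6a lies on the minus strand of chromosome 15, at 74994877 to 74998031, is protein-coding and overlaps no other annotated gene. It belongs to a family of similar neighbouring genes, and reads shared with them cannot be separated in this table.

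Kit had low counts in most libraries although both gates selected for its protein. Its normalized counts in libraries 1 to 9 were 36.1, 33.4, 481, 279, 22.8, 44.8, 12.3, 198 and 67.4. Library 3 was highest, with 408 reads, and lay 1.72-fold above library 4 (interval 1.47 to 2.03). Library 4 lay 1.41-fold above library 8 (1.16 to 1.71), and library 8 lay 2.94-fold above library 9 (2.28 to 3.81). Kit was therefore graded at its upper end, with library 8 closer to library 4 than to any library below it. From library 9 down to library 7, which had 8 reads, none of the 5 neighbouring pairs differed beyond counting error. The range was 39.2-fold (19.7 to 91.4), 22.7-fold without library 3, 21.1-fold without library 7, and 16.1-fold (8.02 to 37.9) without libraries 3 and 4. The protein-coding gene lies on the plus strand of chromosome 5, at 75574916 to 75656722, with no overlapping annotated gene.

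Tie1 was well covered in every library and varied least of the 5. Its values in libraries 1 to 9 were 615, 449, 2733, 1904, 743, 673, 648, 1676 and 918, with at least 229 reads in each. Library 3 lay 1.44-fold above library 4 (interval 1.35 to 1.53), library 4 only 1.14-fold above library 8 (1.06 to 1.22), and library 8 lay 1.83-fold above library 9 (1.69 to 1.97). Library 9 lay 1.24-fold above library 5 (1.13 to 1.36). Libraries 5, 6, 7 and 1 formed a run in which no neighbouring pair differed beyond counting error, and library 2 lay below it (1.37-fold, 1.16 to 1.62). The place of library 4 above library 8 turned on the scaling: with median-of-ratios factors library 8 was the second highest. The range was 6.08-fold (5.31 to 6.996), and 3.73-fold (3.25 to 4.30) without libraries 3 and 4. Tie1 lies on the minus strand of chromosome 4, at 118471191 to 118490061, is protein-coding and overlaps no other annotated gene.

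Emcn had few reads outside libraries 3 and 4. Its normalized counts in libraries 1 to 9 were 4.92, 1.96, 322, 213, 8.69, 0, 9.21, 13.6 and 19.6. Library 3 had 273 reads and lay 1.51-fold above library 4 (interval 1.25 to 1.83), which had 186 reads and lay 10.9-fold above library 9 (7.24 to 17.0). No other library had more than 27 reads, and from library 9 down none of the neighbouring pairs differed beyond counting error. Library 9 lay 1.44-fold above library 8 (0.715 to 3.03). Library 6 had no read. With 3 reads taken as the limit that a count of 0 allows, its level could be up to 4.196 normalized counts, and the exact 95% interval reaches 5.16. Against the limit of 3 reads the highest level was at least 76.7-fold higher, or at least 50.7-fold without library 3 and at least 4.66-fold without libraries 3 and 4. The lower ends of the exact 95% intervals of these ratios, which also count the error of the higher library, were 62.0, 40.8 and 3.54. Without library 6 the lowest library was library 2, with 1 read, and the ratio was 164 (29.2 to 6504). Emcn lies on the plus strand of chromosome 3, at 137341067 to 137432185, is protein-coding and overlaps no other annotated gene.

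**Figure D2:**
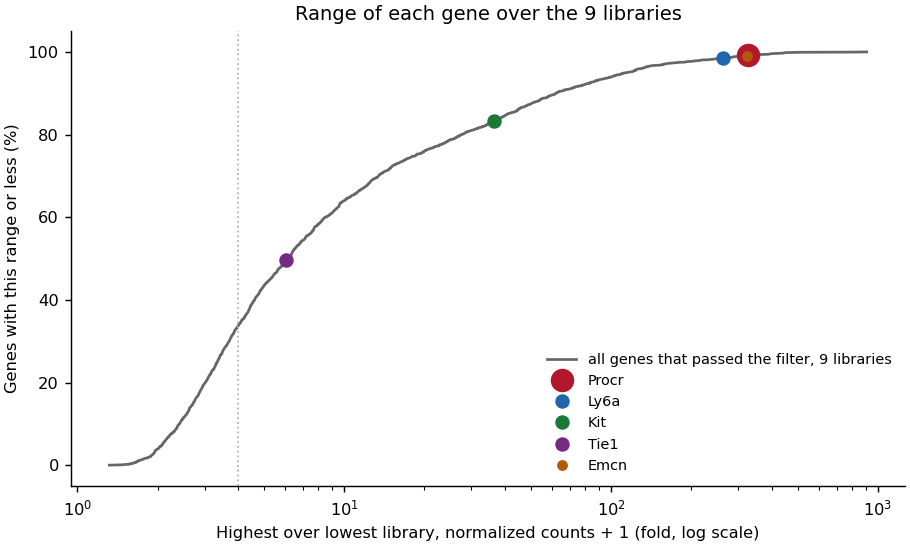
Percent of the 2341 filtered genes (vertical axis) whose highest library over lowest library, on normalized counts with 1 added, was at most the fold on the horizontal axis (log scale); dots mark the 5 receptor genes and the dotted line 4-fold. Tie1 lies at the middle of the curve at 6.07-fold, Kit at 36.3-fold, and Ly6a, Emcn and Procr near its upper end.

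These ranges moved with the scaling, while Procr, Ly6a, Kit and Tie1 kept their order by range under the 3 scalings tried. Scaled to the table total, the ranges were 686-fold for Procr, 487-fold for Ly6a, 90.1-fold for Kit, 10.6-fold for Tie1 and at least 149-fold for Emcn. With median-of-ratios factors they were 223-fold, 217-fold, 24.0-fold, 4.06-fold and at least 49.9-fold. Without libraries 3 and 4, Kit had the widest range of the 4 genes with reads in every library, followed by Ly6a, Procr and Tie1. In that setting, chosen after the data had been seen, 20.8% of 2133 genes ranged 4-fold or more, and the median gene ranged 2.32-fold.

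Ratios between 2 genes within a library do not depend on how the library was scaled. Reads were divided by the length of each gene's merged exons, 2031 bases for Procr, 1205 for Ly6a, 8911 for Kit, 4917 for Tie1 and 5409 for Emcn. Per kilobase, Tie1 was the highest of the 5 in 7 libraries and Ly6a the second. In libraries 3 and 4 Ly6a was the highest (3532 and 4790 normalized counts per kilobase), Procr came next (2777 and 1639) and Tie1 was the third (556 and 387). Kit was the lowest of the 5 in these 2 libraries, at 54.0 and 31.3 normalized counts per kilobase against 59.5 and 39.3 for Emcn, although its own level was highest there. The order of Kit and Emcn depends on the exon lengths used, and whether they differed beyond counting error was not tested.

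Procr and Ly6a did not keep 1 ratio over the libraries. Per kilobase, Procr stood at 0.786 times Ly6a in library 3 (interval 0.753 to 0.821) and at 0.342 times in library 4 (0.327 to 0.358). The same split was wider between libraries 8 and 9. In library 8 Procr stood at 0.811 times Ly6a (0.587 to 1.13), from 93 and 68 reads. In library 9 it stood at 0.0552 times (0.0347 to 0.0840), from 24 and 258 reads, the lowest ratio of the 9 libraries. Libraries 5, 6 and 7 had too few reads of both genes to place them more closely, with ratios of 0.387, 0.514 and 0.630 and intervals that overlapped.

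The ratio of Kit to Tie1 varied less over the libraries than that of Kit to Ly6a or Procr. Per kilobase, Kit over Tie1 ranged 9.29-fold, from 0.0105 in library 7 (interval 0.00449 to 0.0208) to 0.0972 in library 3 (0.0872 to 0.108). Library 8, at 0.0652 (0.0558 to 0.0759), lay between library 3 and library 9 (0.0405, 0.0324 to 0.04998). The ratio of Kit to Ly6a ranged 57.5-fold, from 0.00654 in library 4 (0.00573 to 0.00744) to 0.376 in library 8 (0.283 to 0.504), and that of Kit to Procr 46.2-fold. The ratio of Procr to Tie1 ranged 109-fold and was above 1 only in libraries 3 and 4, at 4.996 (4.75 to 5.25) and 4.23 (3.98 to 4.50). For Ly6a over Tie1 it ranged 97.2-fold, up to 12.4 in library 4.

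**Figure D3:**
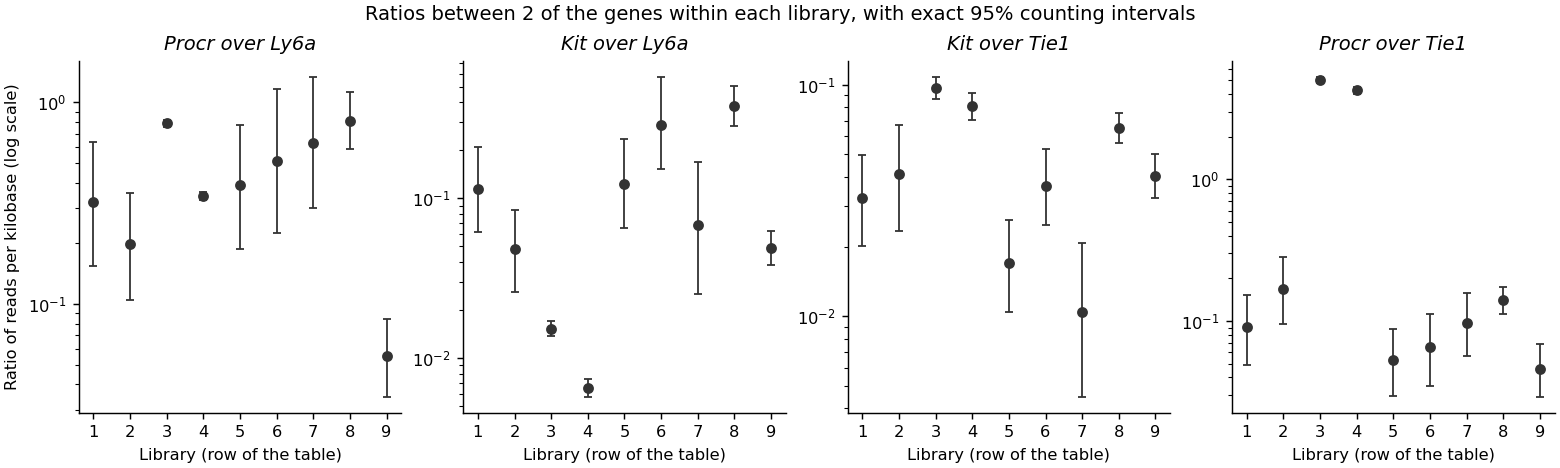
Ratio of reads per kilobase of merged exons (log scale) between 2 of the genes in each of libraries 1 to 9, with exact 95% counting intervals. Procr over Ly6a is lowest in library 9 at 0.0552 and highest in library 8 at 0.811, Kit over Ly6a is lowest in libraries 3 and 4, Kit over Tie1 is highest there, and Procr over Tie1 is above 1 only there.

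Promoter sequence was looked at because the 5 genes shared their highest libraries while differing in range. RefSeq (GRCm38.p6, the mm10 assembly) gave a start site for 4 of them. Of the receptor genes with reads in every library, Procr had the widest range, and Tie1 had the narrowest of all 5. The 250 bases upstream are shown for Procr and Tie1, 5′ to 3′ on the strand of the gene. They lie at chr2:155750967-155751216 on the plus strand and chr4:118489850-118490099 on the minus strand. These bases are upstream of the RefSeq start, which differs from the GENCODE gene span given above. That span starts at 155751117 for Procr and ends at 118490061 for Tie1. Part of the Procr sequence and most of the Tie1 sequence therefore lie within the GENCODE gene. Capitals mark matches on either strand to GGAA, the core of ETS factor motifs, GATA, the core of GATA factor motifs, and TGANTCA, the AP-1 motif, and the matches shown do not overlap.
Procr: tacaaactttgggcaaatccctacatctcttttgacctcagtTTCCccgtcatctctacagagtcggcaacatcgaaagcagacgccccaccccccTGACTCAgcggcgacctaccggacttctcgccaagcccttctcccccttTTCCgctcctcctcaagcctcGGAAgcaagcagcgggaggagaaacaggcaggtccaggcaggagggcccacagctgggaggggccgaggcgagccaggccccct
Tie1: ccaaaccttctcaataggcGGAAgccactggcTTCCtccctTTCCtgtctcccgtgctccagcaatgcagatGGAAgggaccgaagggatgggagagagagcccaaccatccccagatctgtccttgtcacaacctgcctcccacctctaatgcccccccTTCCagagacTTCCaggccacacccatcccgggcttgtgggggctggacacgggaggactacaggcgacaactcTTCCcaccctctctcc
Procr had 3 GGAA matches and Tie1 had 7, with 1 for Kit and 4 for Emcn, and 93.4% of 27025 promoters of this length had at least 1. None of the 4 promoters held GATA, which 54.1% of all promoters held. The 1 TGANTCA match of Procr is of a kind found in 6.87% of promoters. Among 1778 promoters of genes in the deposited table, the shares were 92.8% for GGAA, 41.5% for GATA and 4.95% for TGANTCA. Matches of such short motifs are a description of the letters and not evidence of binding.

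Among all genes of the table, those with the most similar pattern were found for each receptor gene. Similarity was the root mean square difference of log2(normalized counts + 1) over the 9 libraries, after subtracting each gene's own median, and 2186 named genes were compared. The closest genes to Tie1 included Unc13d (0.20), Msrb2 (0.25), Wls (0.25) and Prkd2 (0.25), where the median gene differed by 1.24. Unc13d, a protein of granule release, ranged from 548 to 2030 normalized counts around a median of 685. Without libraries 3 and 4 Unc13d was still the closest and Prkd2 the third closest.

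The closest genes to Kit were Trim30b (0.44), Zfp521 (0.45), Plscr4 (0.49), Maml2 (0.50) and Eps8l1 (0.50), against a median of 1.59. Of these, Plscr4, a member of the phospholipid scramblase family, had the highest level, with a median of 73.8 and a highest value of 735 in library 3. Trim30b was the second closest without libraries 3 and 4. For Procr they were Ltb (0.72), Mettl7a1 (0.73), Cldn5 (0.75), Meg3 (0.82) and Efna1 (0.85), against a median of 3.27. Mettl7a1 reached 5534 in library 3 from a median of 53.0. Without libraries 3 and 4, Meg3 was at place 4 and Mettl7a1 at place 6, while Ltb, Cldn5 and Efna1 fell to places 258, 317 and 526.

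The closest genes to Ly6a were Laptm4b (0.64), Padi4 (0.79), Krt80 (0.82), Ltb (0.87) and Dkkl1 (0.93), against a median of 2.79, and none of the 5 was among the closest 5 without libraries 3 and 4. Laptm4b, a lysosomal membrane protein, reached 2322 in library 4 from a median of 19.6. For Emcn they were Smagp (0.70), Unc45b (0.81), Card10 (0.87), Dkkl1 (0.90) and Mcoln2 (0.91), against a median of 2.36, and Smagp and Unc45b stayed within the closest 5. Most of these lists therefore rest on the high values of libraries 3 and 4. Among the 5 receptor genes, Kit and Tie1 differed least (0.97), then Procr and Ly6a (1.32) and Ly6a and Emcn (1.36), and Procr and Tie1 differed most (2.75). This order also rested on libraries 3 and 4: without them Procr and Tie1 differed least (0.63), Kit and Tie1 differed by 0.79, and Kit and Emcn differed most (1.78). Over the 9 libraries, 247 of the 2186 genes were closer to Kit than Tie1 was, and 852 were closer to Tie1 than Kit was. For the other pair, 45 were closer to Procr than Ly6a was, and 114 were closer to Ly6a than Procr was.

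**Figure D4:**
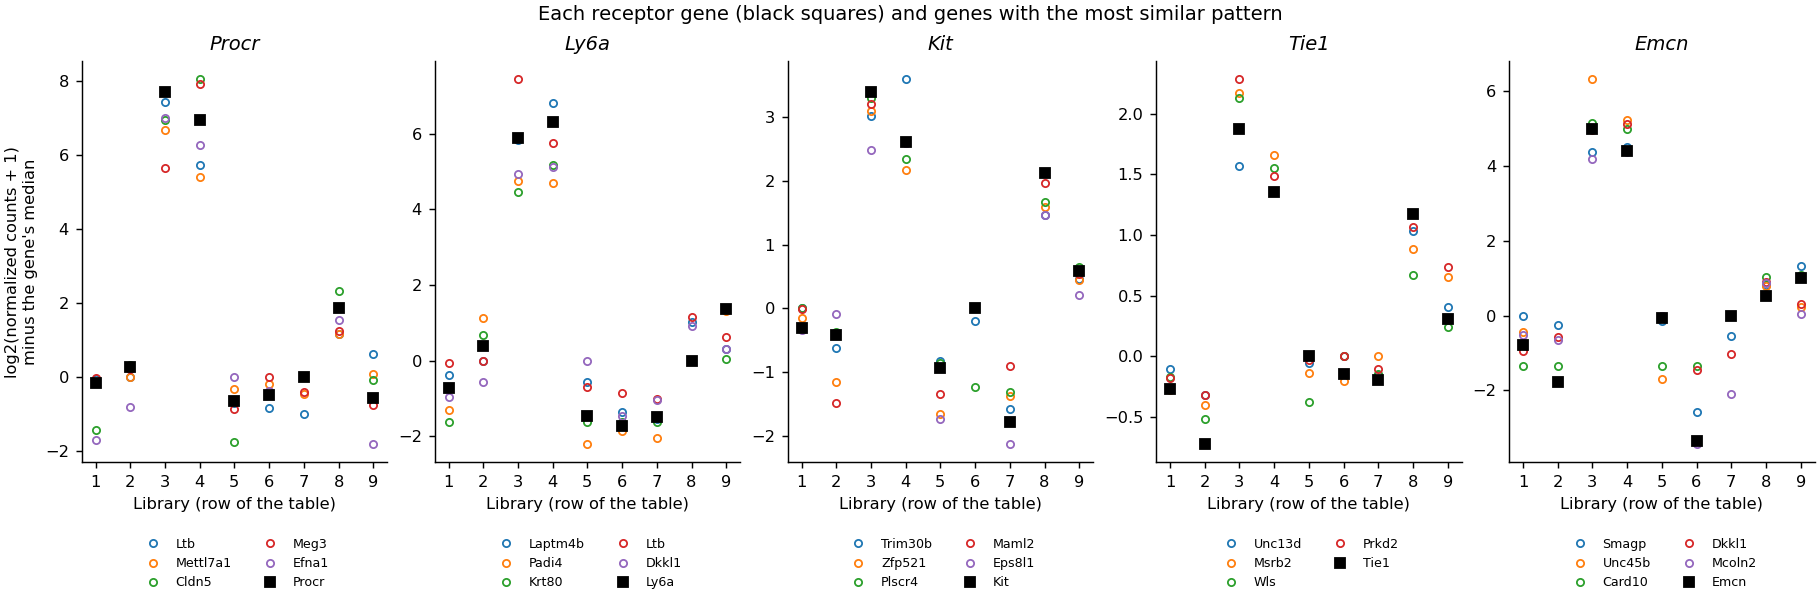
log2(normalized counts + 1) minus the gene's own median (vertical axis) in libraries 1 to 9 for each receptor gene (black squares) and its most similar genes (open circles; 5 each, 4 for Tie1). The matches of Tie1 shown differ from it by a root mean square of 0.20 to 0.25, those of Procr by 0.72 to 0.85 and those of Ly6a by 0.64 to 0.93.

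Other genes of the receptors' pathways were taken from lists, and the table held only part of each. Of the protein C pathway, 6 of 21 listed genes were in the table, Procr among them. Of the 5 others, 4 passed the filter on low values, and all 4 had their lowest 2 levels in libraries 3 and 4, opposite to Procr (40.8% of all genes did). F2r, the thrombin receptor that activated protein C also cuts, had 340 and 217 normalized counts in libraries 3 and 4 and 2315 to 7013 in the others. F10, coagulation factor X, had 4.72 and 8.01 there, Serpine2, an inhibitor of thrombin, 150 and 233, and the protease receptor F2rl2 14.2 and 49.2. F5, coagulation factor V, did not pass the filter and stayed at or below 11.8. These 4 genes moved with the megakaryocyte markers, of which 7 of 10 were measured. The summed level of these 7 was 3061 and 8764 in libraries 3 and 4 and 72965 to 135706 in the others, and their part in the pattern was not tested.

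Of the Kit signalling list, 4 of 28 genes were in the table. Pik3r1, a regulatory subunit of PI3 kinase, had 1377 and 344 normalized counts in libraries 3 and 4, 208 in library 8 and 51.1 to 87.6 in the others. Sh2b3, an adaptor that restrains cytokine and Kit signalling, had 261 and 196 in libraries 3 and 4 and 34.8 to 63.7 elsewhere. Cbl, a ubiquitin ligase of activated receptors, ranged only 3.54-fold, from 12.3 to 46.0, and did not have its highest 2 values in libraries 3 and 4. Of 10 transcription factors that act with Kit in blood progenitors, 4 were measured, and they did not move together. Erg, an ETS factor, was highest in libraries 3 and 4 (544 and 420, against 16.9 to 171), and so was Myb (699.5 and 1032, against 246 to 455). Gata1, a factor of the megakaryocyte and erythroid lineages, was lowest there (37.8 and 165, against 3626 to 8053), and Fli1, another ETS factor, ranged only 3.67-fold with its lowest values in the same 2 libraries.

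Of the Tie and angiopoietin list, Tie1 and Dok2 were the 2 of 16 genes in the table. Dok2, a docking protein of Tek and other receptors, was lowest in libraries 4 and 3 (1396 and 1599 normalized counts) and highest in library 7 (8921), opposite to Tie1. Of the list of Ly6 and other lipid-anchored surface proteins, 4 of 21 were measured, and the 3 besides Ly6a all had their highest 2 values in libraries 3 and 4, as 51.0% of all genes did. Cd24a had 3357 and 1880 there and 307 to 880 elsewhere, Prnp, the prion protein, 567 and 434 against 26.6 to 113, and Bst2 (tetherin) 505 and 428 against 113 to 177. No sialomucin or selectin ligand of that list other than Emcn was in the table, 1 of 15.

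Of the list of other stem cell surface proteins, 14 of 39 were in the table, and 11 of them had their highest 2 values in libraries 3 and 4, as 51.0% of all genes did. Their median range was 51.9-fold, against 6.16-fold for all genes. Cd27, a TNF receptor family member, had 2725 and 3301 normalized counts in libraries 3 and 4 and 416 to 901 elsewhere. Clec1a, a C-type lectin receptor, had 2064 and 1296 there, 483 in library 8, 259 in library 9 and 11.95 to 57.4 in the rest. Its order over libraries 3, 4, 8 and 9 was that of Kit and Tie1 in the deposited scaling. In the rest the order differed from that of Tie1, which was lowest in libraries 1 and 2, where Clec1a had 57.4 and 54.95. Tgfbr2, a TGF-beta receptor, reached 166 from a median of 44.9. Itga2b and Cd9, a platelet tetraspanin, were lowest in libraries 3 and 4, with 4115 and 4385 for Cd9 against 10828 to 24487. The remaining gene, Csf2rb, a cytokine receptor subunit named after its values were seen, had its highest values in libraries 4 and 9.

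**Figure D5:**
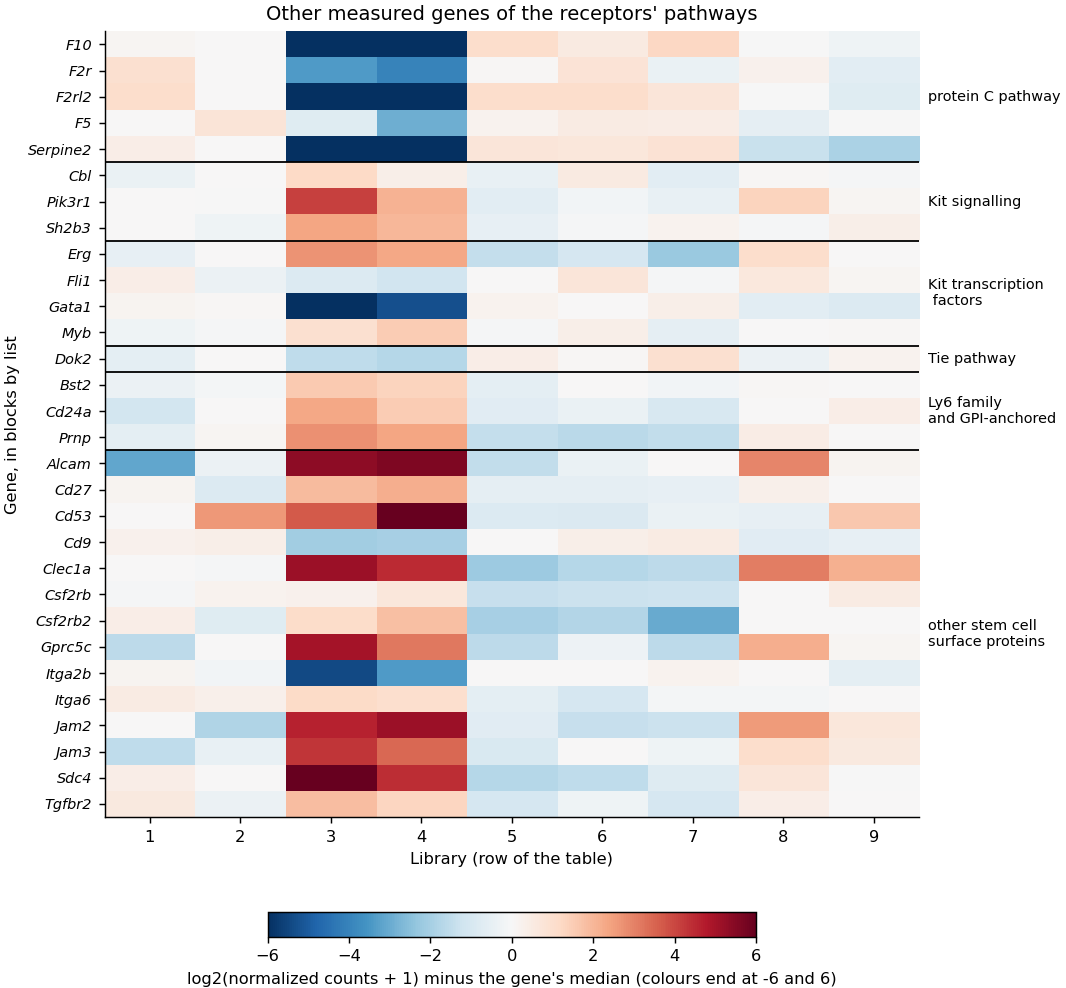
Heat map of 30 other measured genes (rows, in blocks by list) in libraries 1 to 9 (columns), as log2(normalized counts + 1) minus the gene's median; colours end at -6 and 6. Protein C pathway genes, Gata1, Itga2b, Cd9 and Dok2 are lowest in libraries 3 and 4, while most other surface protein genes are highest there.

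Markers of other cell types that carry these receptors were present in part. Of the 11 endothelial markers other than Tie1 and Emcn, the table held Cldn5, a tight junction protein, and Egfl7, a secreted vessel factor. Their summed level was 5692 and 5926 normalized counts in libraries 3 and 4 and 657 to 969 in the others. Every receptor gene also had its highest 2 values in these libraries in the deposited scaling, as 51.0% of all genes did. The part of these markers in the levels of the receptor genes was not tested. Of 7 mast cell and basophil markers, only Fcer1a was in the table. It had 0 reads in library 3, which had the most Kit, and also in libraries 5 and 7, which had the least. In library 4 it had 3.43 normalized counts, in library 6 1.40 and in library 8 19.9, and it was highest in library 1 at 103. The 4 measured granulocyte and monocyte markers of 8 summed to 12916 and 12329 in libraries 3 and 4 and to 366 to 2142 elsewhere, most of it Prtn3. Csf3r, the G-CSF receptor, was also highest in these libraries (668 and 861.5, against 6.14 to 119.5), while Cebpa had 0 reads in both and Csf1r had 0 in library 3. The summed level of the 3 measured erythroid markers of 9 was lowest in libraries 3 and 4, at 44.8 and 180. Most of this sum was Gata1, a factor of the megakaryocyte as well as the erythroid lineage. Rhd, a blood group antigen gene of this list, was lowest in library 8 (3.15, against 4.72 and 9.15 in libraries 3 and 4). The sum of the 3 lymphoid markers of 7 was also lowest there, at 238 and 716, but most of it was Nkg7, a granule protein of cytotoxic cells. Lck, a T cell kinase, was instead highest in libraries 3 and 4 (44.8 and 43.5). Vpreb1 did not pass the filter on low values and had at most 12.3 in any library. Of 5 stromal markers, 0 were in the table. The part of these cells was not tested. In bulk libraries such as these, fewer cells of a type and less RNA per cell cannot be told apart.

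Other stem cell marker genes had a summed level with the same 4 highest libraries as Kit, Tie1 and Emcn. For Kit and Emcn the lowest of these 4 did not differ from the next library beyond counting error. Besides Procr, Ly6a, Tie1 and Emcn, the table held 4 of the 10 other listed HSC markers, Hlf, Mecom, Mllt3 and Hoxb5, all transcriptional regulators. Their summed level was 5024 normalized counts in library 3, 2244 in library 4, 522 in library 8 and 326 in library 9, and 70.6 to 114 in the rest. Most of this sum was Mllt3, with 3680, 1548, 269 and 165 in libraries 3, 4, 8 and 9. Hoxb5 had 400 and 223 in libraries 3 and 4, 195 in library 8, 111.5 in library 9 and at most 11.8 in any other library. Its levels in libraries 4 and 8 rested on 195 and 186 reads, and whether they differed beyond counting error was not tested. Hlf and Mecom did not keep that order. Hlf had 37.7 in library 8 (36 reads) and 39.8 in library 9 (55 reads). Mecom had 9.81 in library 2 (5 reads) and 9.42 in library 9 (13 reads). These small differences were not tested against counting error. All 4 had their highest 2 values in libraries 3 and 4, as 51.0% of all genes did.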

How the data were processed

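Per the submitters' processing notes, the build was mm10 and Bowtie2, STAR and DESeq were used, with no role or version given. The deposited table is a signal of normalized counts, scaled by the authors, in which 2402 columns are genes and 9 unnamed rows are libraries. How reads were counted, scaled and filtered to these genes, and with which annotation, is not stated in the labels used here. Sorted cells were lysed for RNA in Trizol and sequenced from NEBNext Ultra libraries, per the labels' protocols. Rows were not assigned to samples, so the tests between groups that the labels would allow were not run.

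In each row the values were whole multiples of 1 step, and dividing by it gave whole reads within 0.1 for 100% of values. The chi-square test compared these reads with 1 rate per normalized count, over genes that reached 10 normalized counts in 2 or more libraries, with Benjamini-Hochberg adjustment at 0.05. It compares libraries, not conditions. Ratios of 2 libraries or genes have exact conditional binomial (Clopper-Pearson) intervals at 95%, and a count of 0 was given a limit of 3 reads. The range over all genes used a pseudocount of 1, which understates the range of low genes. Of 2402 symbols, 2258 matched GENCODE M21. Analyses used Python 3.11.15, numpy 2.4.6, scipy 1.17.1 and pandas 2.3.3, and were tested on simulated data with known changes.

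The genes named are the 5 receptor genes, the sort markers, the 5 most similar named genes for each, and up to 6 measured genes of each list with the highest median; 1 gene that this rule takes is not reported here. The genes and lists were chosen with earlier results of these data known. Alternatives were scaling to the table total, median-of-ratios factors, other pseudocounts, no filter and leaving out libraries.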

Additional observations from a re-analysis of the deposited data

How the results depend on the processing

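The ranges depended mainly on libraries 3 and 4 and on the scaling. Without libraries 3 and 4, a setting chosen after the data had been seen, the range was 5.98-fold for Procr, 8.91-fold for Ly6a, 16.1-fold for Kit, 3.73-fold for Tie1 and at least 4.66-fold for Emcn, and 443 genes ranged 4-fold or more, against 1555. Scaling to the table total gave 686-fold for Procr and 10.6-fold for Tie1, and median-of-ratios factors gave 4.06-fold for Tie1 and at least 49.9-fold for Emcn. Leaving out each library in turn gave 204 to 346 for Procr, 203 to 275 for Ly6a, 21.1 to 39.2 for Kit and 4.24 to 6.08 for Tie1. For Emcn it gave lower bounds, the lowest of them at least 50.7-fold (without library 3), except without library 6, where the ratio to the 1 read of library 2 was 164. It gave 2121 to 2311 genes called by the chi-square test, against 2311, and 1108 to 1546 genes with a range of at least 4-fold. Of the 5 most similar genes, 1 was shared without libraries 3 and 4 for Procr, 0 for Ly6a, 1 for Kit, 2 for Tie1 and 2 for Emcn. Depth limited the order of the lowest libraries, as for Emcn outside libraries 3 and 4. No paired analysis was possible because no row of the table carries a sample name or replicate number.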

Other observations

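Cd53, a tetraspanin of blood cells, did not keep the pattern of the receptor genes. It had 5225 normalized counts in library 4, 773 in library 3 and 359 in library 2, where Procr, Kit, Tie1 and Emcn were low, then 181 in library 9 and 32.2 to 59.1 in the other libraries. Libraries 9 and 2 were also the next highest for Ly6a after libraries 3 and 4. For Ly6a, however, library 2 did not differ from library 8 beyond counting error (1.32-fold, 0.894 to 1.94). In library 8, where Kit and Tie1 were the third highest, Cd53 was at 41.9.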
